A study of Caenorhabditis elegans with 19 samples.

Results

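The mitochondrial ribosomal protein genes of Caenorhabditis elegans were taken as all genes whose WormBase name begins with mrpl- or mrps- followed by a number, for proteins of the large and of the small subunit. The rule found 70 genes among the 21975 listed in each table, 41 of the large and 29 of the small subunit, and used no expression value. The series measured RNA in whole-worm populations as FPKM, a level per transcript length and library size. At the L3 stage 3 genotypes were sampled as larvae fed for 24 h after hatching, with 4 libraries each: the double mutant xol-1 sex-1 (alleles ne4472 and gk829, strain EKM198), the single mutant xol-1 (ne4472, strain WM458) and the wild-type strain N2 (WT). The double mutant was also sampled as early embryos, obtained by bleaching adults (3 libraries), and as L1 larvae fed for 3 h (4 libraries). The xol-1 allele is thus shared by both mutants, and only sex-1 separates them by design. Each mutant genotype is 1 strain, so that strain background, developmental timing and handling cannot be told apart from the alleles. No label says that the libraries of a genotype came from separate cultures, so the p-values measure only the spread between these libraries, which may be technical.

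Mitochondria keep ribosomes of their own, which translate the few proteins still encoded by mitochondrial DNA, most of them core subunits of the respiratory chain and the ATP synthase. The ribosomal RNAs are made inside the organelle, whereas every protein of the particle is encoded in the nucleus, made in the cytosol and imported. Some of these proteins descend from the bacterial ribosome and keep its numbering, and others were added in the mitochondrial lineage and have no bacterial counterpart. In the worm, partial loss of mitochondrial ribosomal proteins, mrps-5 among them, is known for slowing respiration, inducing the mitochondrial unfolded protein response and extending life. xol-1 sets the sexual fate of the worm and its dosage compensation, and sex-1 encodes a nuclear hormone receptor, carried on X, that represses it.

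Sequencing depth, estimated from the steps between the lowest values, was 28.3 to 35.8 fragments per FPKM and kilobase for early embryos, 14.1 to 19.7 for L1 and 20.6 to 34.4 for L3 libraries. sex-1 was still listed in the double mutant at L3, at 3.36 to 4.16 FPKM, against 3.79 to 5.71 FPKM in xol-1 and 4.05 to 5.59 FPKM in WT, and the ranges of the double mutant and of both other genotypes overlapped. In early embryos of the double mutant it was listed at 22.4 to 27.1 FPKM, so these values do not show a loss of sex-1 RNA, and its function was not measured. xol-1 was at or below 0.12 FPKM in all L3 libraries, too low to check its allele at this stage. Of the tissue markers, germline genes (16 listed) summed to 35.4 to 44 FPKM in the double mutant, 16.6 to 23.7 FPKM in xol-1 and 12.7 to 19.1 FPKM in WT at L3. Sperm genes (31 msp- genes) summed to at most 10.04 FPKM in any L3 library. In early embryos of the double mutant, sperm genes summed to 1070 to 1793 FPKM and germline genes to 1198 to 1544 FPKM. At L1 the sums were 6.63 to 9.39 FPKM and 69.0 to 70.7 FPKM. The source of this embryo RNA and its part in the stage differences were not tested.

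All 70 genes were detected above 0 in each of the 19 libraries, and 69 of them stood in the upper 50% of all listed genes in every library. The lowest, mrpl-48, was supported by about 27.3 fragments in its thinnest library, far above a floor of 3 fragments. At L3 the most abundant member was mrpl-11, a protein at the base of the factor-binding stalk of the large subunit, with 189.8, 221, 206 and 184 FPKM in the double mutant, 268, 237, 314 and 294 FPKM in xol-1 and 233, 242, 251 and 241 FPKM in WT. It ranked first of the 70 in all 3 genotypes. mrpl-12, the stalk protein that in bacteria recruits the translation factors, averaged 194 ± 18.5 FPKM in the double mutant, 273 ± 27.5 FPKM in xol-1 and 204 ± 15.5 FPKM in WT (SD, n = 4 each), and mrps-33, a small subunit protein without a bacterial counterpart, was of like abundance. At the other end, mrps-26 averaged 13.4 ± 1.7 FPKM in the double mutant, 20 ± 3.11 FPKM in xol-1 and 16.1 ± 0.611 FPKM in WT (SD, n = 4 each). mrps-31 lay between 26.2 and 39.4 FPKM across the 12 libraries. 

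None of the 70 genes lay on X, which carries 13.7% of the annotated protein-coding genes. Chromosome III held 22 of them (31.4% of the set, against 13.2% of all protein-coding genes), I held 15, II 12, IV 11 and V 10. For 20 of the 70 (28.6%), another protein-coding gene on the same strand ended within 150 bases upstream, an arrangement found for 8.01% of all protein-coding genes and typical of genes inside worm operons. The annotated distances show spacing and do not establish an operon. mrps-2 and mrpl-4, a small and a large subunit gene, were such direct neighbours on chromosome V, 105 bases apart, and mrpl-1 and mrps-24 lay head to head on chromosome IV, 343 bases apart. The genes were short, with a median longest transcript of 755 bases against 1293 bases over all genes tested. A further feature was overlap: the annotated spans of 7 genes, introns included, overlapped another protein-coding gene on the same strand (mrpl-1, mrps-15, mrps-16, mrps-18A, mrpl-42, mrps-27 and mrpl-44). The way fragments were divided between such pairs is not given in the sources used here, so these 7 values are less certain. On the other strand, 14 genes overlapped a protein-coding gene by span.

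The first question was how larvae that carry the sex-1 allele in the xol-1 background differ from xol-1 larvae. In xol-1 sex-1 larvae most of the set was lower than in xol-1 larvae. Of 70 genes, 57 were lower and 1, mrpl-37, was higher, with an adjusted p under 0.05 by limma on log2(FPKM + 1) with Benjamini-Hochberg adjustment over 13502 genes. Over all genes tested, 26.3% were lower and 22.9% higher by the same rule. Most of the differences were small: 4 of the 70 passed with a change of more than 1.5-fold, against 14.9% of all genes tested. The median difference of the set was -0.38 on the log2 scale, against -0.018 over all genes, and single members ranged from -0.67 to 0.71. For 52 of the 70 all 4 double mutant values lay below all 4 xol-1 values, an arrangement shown by 23.0% of all genes tested, and for 2 they lay above (20.3% of all genes tested). All 35 members with the higher mean FPKM at L3 were lower, against 45.8% of the genes tested in the same range of levels, and 22 of the 35 with the lower mean, against 29.5% in their range, a comparison added after the values were seen. In bulk RNA of whole worms, fewer cells of a type and less RNA per cell cannot be told apart.

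The plot of deviations by library shows the same pattern sample by sample. The median member deviated by -0.26, -0.08, -0.10 and -0.19 (log2) in the 4 double mutant libraries, by 0.15, 0.08, 0.36 and 0.32 in the 4 xol-1 libraries, and by -0.08, -0.05, -0.13 and -0.03 in the 4 WT libraries. Every xol-1 library was above every other, with its replicates 3 and 4 highest, and the double mutant and WT libraries overlapped. As a share of all FPKM in the library, the 70 genes made up 0.413 to 0.451% in the double mutant, 0.472 to 0.588% in xol-1 and 0.464 to 0.491% in WT. On that scale xol-1 replicate 2, at 0.472%, fell within the WT range, while the double mutant stayed below both other genotypes.

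**Figure D1:**
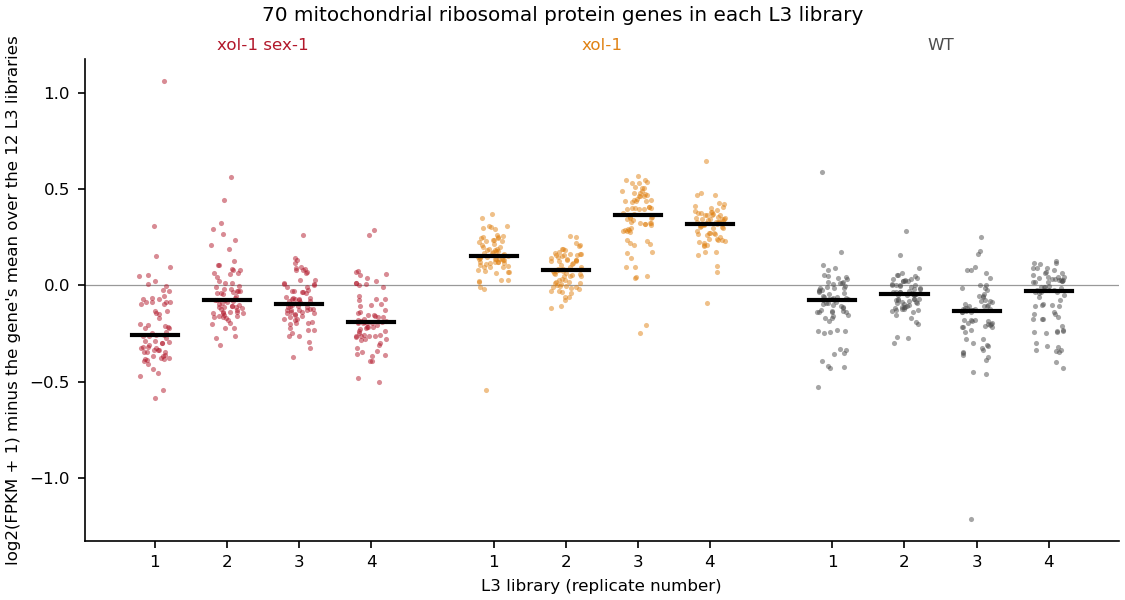
Each point is 1 of the 70 mitochondrial ribosomal protein genes in 1 L3 library, plotted as its log2(FPKM + 1) minus that gene's mean over the 12 libraries, and the black bar is the median of the 70. The 4 xol-1 medians, 0.08 to 0.36, lie above the double mutant medians (-0.26 to -0.08) and the WT medians (-0.13 to -0.03).

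For the account by role, the genes were sorted by subunit and by whether the protein has a bacterial counterpart. Large subunit numbers up to 36 and small subunit numbers up to 21 were taken as having one, as were mrpl-47, mrps-24 and mrps-28, whose bacterial relatives carry other numbers, and mrps-30 was left with the small subunit by its name although its human counterpart sits in the large one. By the same rule mrps-18A, mrps-18B, mrps-18C and mrps-18.C were all placed in the small subunit group with a bacterial counterpart. Their relation to the mammalian genes of that number was not checked. Of 25 large subunit genes with a bacterial counterpart, 24 were lower in the double mutant than in xol-1 and none was higher, with a median of -0.44 (log2). mrpl-1 (WBGene00017997, WBcel235 chromosome IV, 7707574 to 7709701, minus strand, 7 exons), the protein of the mobile L1 stalk at the tRNA exit side, fell the furthest. It had 34.8, 35.1, 40.9 and 30.3 FPKM in the double mutant, against 55.3, 45.1, 60.9 and 67.3 FPKM in xol-1. The groups did not overlap, and the log2 difference was -0.67 (SE 0.11; limma, Benjamini-Hochberg adjusted p = 0.000398). Its gene body overlaps emc-6 on the same strand. mrpl-34 (WBGene00007712, chromosome I, 10193242 to 10193999, plus strand, 2 exons), one of the smallest proteins of the bacterial large subunit, had 74.5, 89.6, 77.7 and 81.3 FPKM in the double mutant, against 120.1, 109.5, 137 and 136 FPKM in xol-1. Again no value overlapped, with a log2 difference of -0.63 (SE 0.08; limma, Benjamini-Hochberg adjusted p = 7.44e-05). The stalk proteins moved with them: mrpl-12 was 0.712-fold and mrpl-11 0.723-fold its xol-1 level on the log2(FPKM + 1) scale. mrpl-36, whose bacterial counterpart is a very small zinc-binding protein, was also lower (log2 difference -0.43, SE 0.09), as was mrpl-17, which in bacteria lies near the exit of the nascent peptide (-0.38, SE 0.07). mrpl-2, a core protein beside the peptidyl transferase centre, was the member of this group that did not pass, at -0.15 (SE 0.07; limma, Benjamini-Hochberg adjusted p = 0.0802).

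Small subunit proteins with a bacterial counterpart showed 15 of 19 lower in the double mutant than in xol-1 and none higher, with a median of -0.40. mrps-15 (WBGene00010624, chromosome I, 8690929 to 8692622, minus strand, 8 exons), a protein of the platform side of the small subunit in bacteria, had 27.7, 39.9, 32.2 and 36.1 FPKM in the double mutant, against 46.8, 46.1, 61.9 and 53.6 FPKM in xol-1. All double mutant values were lower, and the log2 difference was -0.60 (SE 0.13; limma, Benjamini-Hochberg adjusted p = 0.00184). This gene overlaps hbs-1 on the same strand. mrps-5, the gene best known from lifespan studies in the worm, had 113, 125, 117 and 114 FPKM in the double mutant, against 141, 128, 146 and 136 FPKM in xol-1. The 2 groups did not overlap, yet the change was small, at -0.23 (SE 0.06; limma, Benjamini-Hochberg adjusted p = 0.00814). mrps-10, mrps-16, mrps-18C and mrps-28 did not pass, with log2 differences of -0.13, -0.13, -0.14 and -0.12.

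The number 18 is carried by several genes, as it is in mammals, where MRPS18C is the counterpart of the bacterial protein, MRPS18B is a divergent relative in the small subunit and MRPS18A sits in the large subunit. The worm names include both mrps-18C (WBGene00016142) and mrps-18.C (WBGene00020499), which are separate genes on chromosomes III and II. mrps-18B (WBGene00011759, chromosome II, 8525681 to 8526807, plus strand, 5 exons) had 107, 121, 113 and 105 FPKM in the double mutant, against 163, 155, 201 and 186 FPKM in xol-1. Its log2 difference was -0.65 (SE 0.08; limma, Benjamini-Hochberg adjusted p = 3.57e-05), and the groups did not overlap. mrps-18A and mrps-18.C were lower too, with log2 differences of -0.48 (SE 0.09) and -0.52 (SE 0.09). mrps-18C did not pass the test and its groups overlapped, with 78.7, 85.6, 86.7 and 81.4 FPKM in the double mutant and 85.6, 85.3, 95.5 and 101 FPKM in xol-1. The difference between the 18-numbered genes was not tested.

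Proteins found only in mitochondrial ribosomes were lower in the double mutant in 11 of 16 large subunit genes, with a median of -0.27 and 1 gene higher, and in 7 of 10 small subunit genes, with a median of -0.32 and none higher. The exception, mrpl-37 (WBGene00013004, chromosome II, 13568077 to 13575068, minus strand, 8 exons), encodes a large subunit protein added in the mitochondrial lineage. It had 38, 41.8, 36.8 and 36.7 FPKM in the double mutant, 33.2, 30.9, 25.5 and 32.1 FPKM in xol-1, and 23.7, 25.1, 23.3 and 25.6 FPKM in WT. Every double mutant value was above every value of the other 2 genotypes, and xol-1 replicate 3 fell among the WT values. The double mutant was higher than xol-1 by 0.33 (SE 0.08; limma, Benjamini-Hochberg adjusted p = 0.00433) and higher than WT by 0.63 (SE 0.08; limma, Benjamini-Hochberg adjusted p = 3.49e-05). mrpl-48, also mitochondria-specific and the least abundant member, had 13.8, 9.49, 6.85 and 7.69 FPKM in the double mutant and 3.89, 6.35, 5.17 and 5.67 FPKM in xol-1. All double mutant values were higher, but the spread was wide and the difference of 0.71 (SE 0.31) did not pass (limma, Benjamini-Hochberg adjusted p = 0.0781). mrps-26 (log2 difference -0.54, SE 0.11), mrps-31 (-0.32, SE 0.09) and mrps-33 (-0.32, SE 0.09) were lower in the double mutant, the values of these last 2 genes overlapping between the genotypes.

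**Figure D2:**
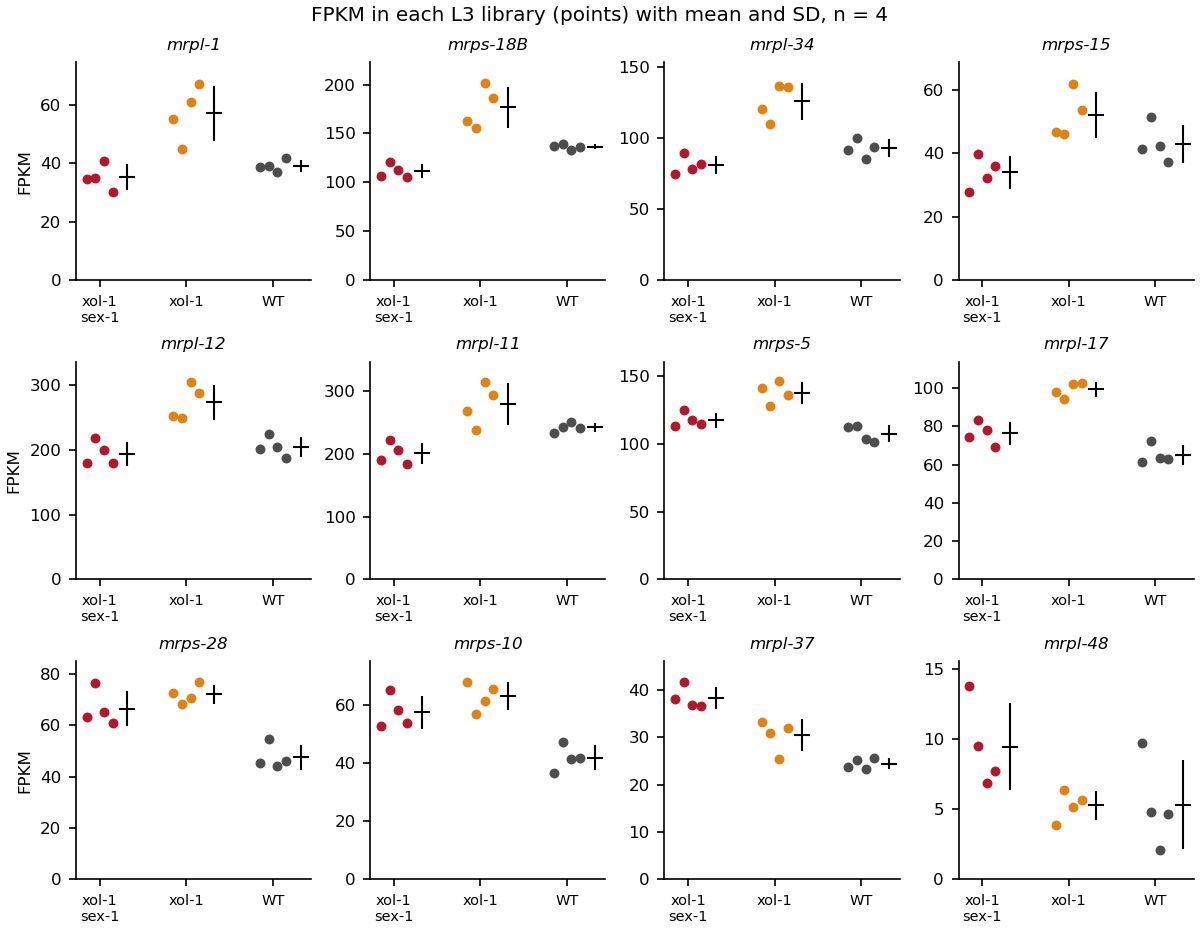
FPKM of 12 mitochondrial ribosomal protein genes in the 12 L3 libraries, each point 1 library, with the mean and SD (n = 4) beside each genotype and axes starting at 0. In the first 10 panels xol-1 has the highest mean, as for mrpl-1 at 57.2 FPKM against 35.3 FPKM in the double mutant and 39.1 FPKM in WT, while mrpl-37 and mrpl-48 are highest in the double mutant.

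The second question was how xol-1 larvae differ from WT. In xol-1 larvae most of the set was higher. All 70 estimated differences were positive, from 0.06 to 0.60 on the log2 scale, with a median of 0.30 against -0.0006 over all genes. With columns scaled to a common sum 29 genes in place of 49 passed, the median was 0.16 against -0.12 over all genes, and mrpl-54, mrps-11, mrpl-36 and mrps-33 turned negative without a call. By limma with Benjamini-Hochberg adjustment 49 of the 70 were higher at an adjusted p under 0.05, against 16.0% of all genes tested. None was lower, against 14.7% of all genes tested. With a change of more than 1.5-fold 2 of the 70 passed, against 8.74% of all genes tested. For 44 genes all xol-1 values lay above all WT values (14.9% of all genes tested), and for none did they lie below (14.6% of all genes tested).

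All 4 structural groups held genes that were higher in xol-1 than in WT: 19 of 25 and 12 of 16 large subunit genes, and 12 of 19 and 6 of 10 small subunit genes, with and without a bacterial counterpart in that order, passed. Their medians were 0.35, 0.27, 0.31 and 0.28. mrpl-17 (WBGene00021829, chromosome I, 3162813 to 3163585, plus strand, 3 exons) rose the most, with 97.8, 94.4, 102 and 103 FPKM in xol-1 against 61.5, 72.5, 63.2 and 63 FPKM in WT. The genotypes were well apart, and the log2 difference was 0.60 (SE 0.07; limma, Benjamini-Hochberg adjusted p = 4.43e-05). mrps-28 (WBGene00012830, chromosome V, 19644239 to 19645676, plus strand, 3 exons) had 72.8, 68.3, 70.9 and 77.1 FPKM in xol-1 against 45.1, 54.8, 44.1 and 46 FPKM in WT, a log2 difference of 0.60 (SE 0.08; limma, Benjamini-Hochberg adjusted p = 0.000173). mrps-10, a protein of the head of the small subunit in bacteria (WBGene00012556, chromosome III, 12926557 to 12927886, plus strand, 3 exons), had 67.9, 56.8, 61.5 and 65.5 FPKM in xol-1 against 36.6, 47.1, 41.4 and 41.8 FPKM in WT. For both genes the WT values were all lower. mrps-16 (WBGene00018961, chromosome II, 5474373 to 5475420, plus strand, 4 exons) had 104, 104, 98.5 and 102 FPKM in xol-1 against 64.9, 72, 70.2 and 70.7 FPKM in WT, with a log2 difference of 0.55 (SE 0.06; limma, Benjamini-Hochberg adjusted p = 3.93e-05), and it overlaps ilcr-2 on the same strand.

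Of the genes that were lowest in the double mutant, mrpl-1 was higher in xol-1 than in WT by 0.52 (SE 0.11), mrpl-34 by 0.43 (SE 0.08) and mrps-18B by 0.36 (SE 0.08), each with no overlap. mrps-15 did not pass, at 0.27 (SE 0.13; limma, Benjamini-Hochberg adjusted p = 0.127), and its values overlapped. mrps-5 was higher in xol-1 than in WT by 0.36 (SE 0.06; limma, Benjamini-Hochberg adjusted p = 0.000757) and mrpl-12 by 0.41 (SE 0.09; limma, Benjamini-Hochberg adjusted p = 0.0031). Several abundant members did not pass: mrpl-11 at 0.19 (SE 0.09), mrps-33 at 0.11 (SE 0.09), mrpl-54 at 0.11 (SE 0.10), mrpl-36 at 0.10 (SE 0.09) and mrps-11 at 0.06 (SE 0.07). mrps-31 passed narrowly, at 0.25 (SE 0.09; limma, Benjamini-Hochberg adjusted p = 0.0475), and lost the call under most other settings.

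The third comparison set the double mutant against WT. By limma with Benjamini-Hochberg adjustment 15 genes rose and 13 fell in the double mutant, against 25.2% and 28.1% of all genes tested. With a change of more than 1.5-fold 2 of the 70 passed, against 18.4% of all genes tested. The median difference was -0.10, against -0.034 over all genes, with a range from -0.37 to 0.83. No overlap was seen for 12 genes that were higher (23.5% of all genes tested) and 18 that were lower (26.3% of all genes tested). The count of lower genes moved between 7 (without WT replicate 1, or double mutant replicate 1 or 4) and 23 (columns scaled to a common sum, or only the 2 groups compared in the fit), with 8 without WT replicate 2 or 4 or under scaling by the median of ratios. With so wide a range, nothing is read from these counts about the 70 genes as a set. The double mutant is compared with WT using the same double mutant and WT libraries as in the other 2 comparisons, so the 3 sets of values are not independent.

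The genes that were higher in the double mutant than in WT included mrpl-37 and, by 0.48 (SE 0.08), mrps-28, with 63.4, 76.7, 65.3 and 61 FPKM in the double mutant against the WT values of 44.1 to 54.8 FPKM given above. mrps-10 was higher by 0.45 (SE 0.09) and mrps-16 by 0.42 (SE 0.06), each with no overlap. mrpl-48 was called higher by 0.83 (SE 0.31; limma, Benjamini-Hochberg adjusted p = 0.041), but WT replicate 1, at 9.69 FPKM, lay within the double mutant range, the other WT values being 4.79, 2.07 and 4.64 FPKM. That call was lost when any of several single libraries was left out. The genes that were lower included mrpl-54 (WBGene00009128, chromosome I, 9159121 to 9159522, minus strand, 1 exon), a mitochondria-specific protein, with 105, 129, 121 and 114.9 FPKM in the double mutant against 147, 152, 159.8 and 147 FPKM in WT. No value overlapped, and the log2 difference was -0.37 (SE 0.10; limma, Benjamini-Hochberg adjusted p = 0.0066). mrps-11 (WBGene00012244, chromosome V, 12493239 to 12494622, minus strand, 2 exons), a protein of the platform in bacteria, had 131, 148, 142 and 138 FPKM in the double mutant against 186, 161, 187 and 171 FPKM in WT, a log2 difference of -0.34 (SE 0.07; limma, Benjamini-Hochberg adjusted p = 0.00127). mrpl-36 (WBGene00010783, chromosome III, 9847626 to 9848116, minus strand, 2 exons) had 151, 190.1, 182 and 153 FPKM in the double mutant against 212, 224, 193 and 219 FPKM in WT, and was lower (log2 difference -0.33, SE 0.09). mrps-15 was called lower (log2 difference -0.33, SE 0.13; limma, Benjamini-Hochberg adjusted p = 0.0404) with overlapping values, a call that several other settings did not keep.

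By level, of the 35 members with the higher mean FPKM at L3, 12 were lower in the double mutant than in WT and none was higher, against 43.4% lower and 22.4% higher among the 1096 genes tested in the same range of levels. Of the 35 with the lower mean, 1 was lower and 15 were higher, against 31.8% lower and 24.6% higher among the 7791 genes tested in their range. The called-higher genes had a median level of 61 FPKM, the called-lower genes 141 FPKM and the others 107 FPKM. Across the 70 genes the difference correlated with log2(mean FPKM + 1) at r = -0.59 (Spearman's rho -0.55), and across all 13502 genes tested at r = -0.13 (rho -0.15). These are correlations across genes, which share libraries and are not replicates, and each gene's level includes the libraries compared. The higher genes also had longer transcripts, with a median of 1009 bases against 731 bases for the lower genes, and the part of level or length in these calls was not tested.

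**Figure D3:**
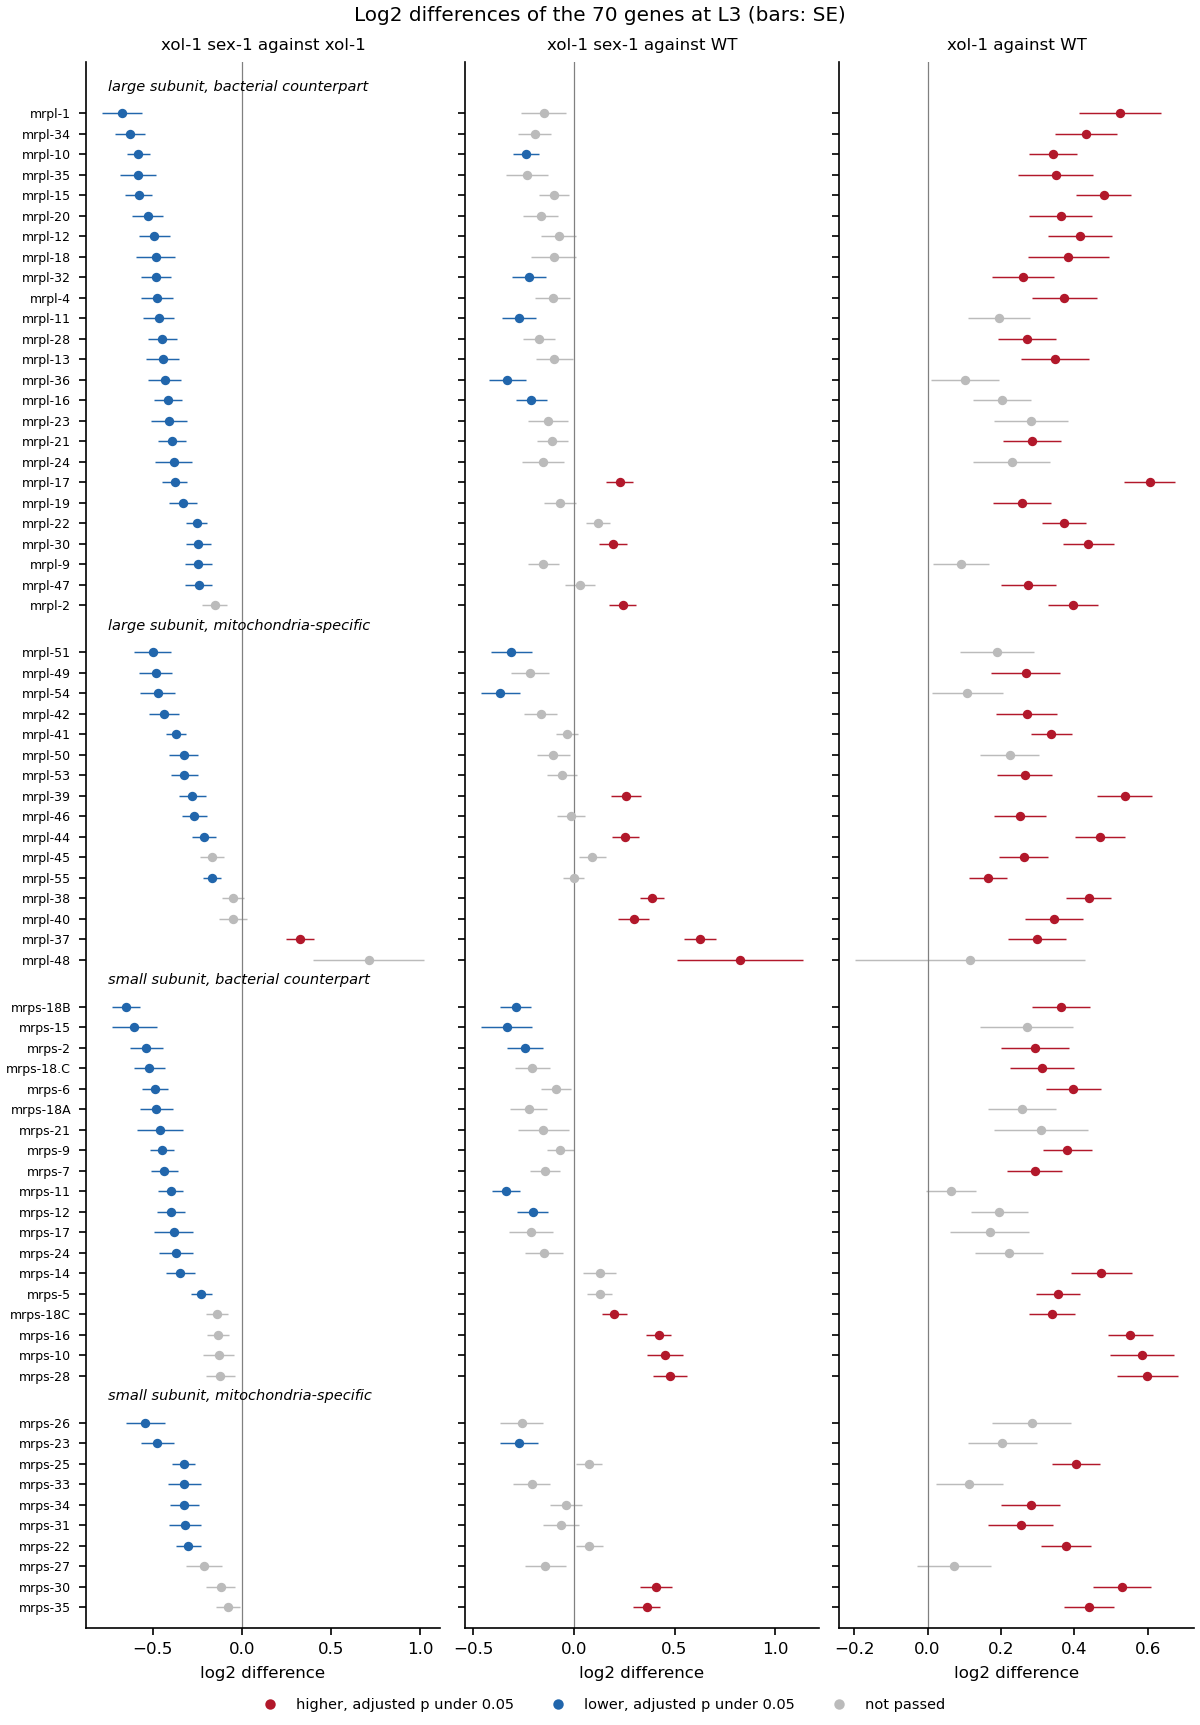
Log2 differences, with SE bars, of all 70 genes in the 3 L3 comparisons, ordered within the 4 structural groups by the first comparison, with genes at an adjusted p under 0.05 in red (higher) or blue (lower). The left panel has 57 blue points and 1 red point, the middle panel 13 blue and 15 red, and the right panel 49 red and no blue.

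Taking the 3 genotypes side by side, xol-1 had the highest mean for 68 of the 70 genes, the double mutant for 2 (mrpl-37 and mrpl-48) and WT for none. The most common combination of calls, in 30 genes, was lower in the double mutant than in xol-1, higher in xol-1 than in WT, and not passed between the double mutant and WT. Another 9 genes were lower in the double mutant than in both other genotypes with no call for xol-1 against WT. A further 9, mrpl-2, mrpl-38, mrpl-40, mrps-10, mrps-16, mrps-18C, mrps-28, mrps-30 and mrps-35, were higher in both mutants than in WT with no call between the mutants. mrpl-17, mrpl-30, mrpl-39 and mrpl-44 had double mutant levels between those of xol-1 and WT, with all 3 differences called. mrpl-10, mrpl-32, mrps-2 and mrps-18B were lower in the double mutant than in WT and higher in xol-1 than in WT. A gene without a call is not shown to be equal between genotypes. The shares of all genes tested with these orders of means and combinations of calls were not computed. These counts are therefore not read as particular to the set.

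Other genes of mitochondrial protein synthesis and import were counted from lists of known members. Only listed names found in the data were counted: 6 of 10 translation factors, 10 of 13 tRNA synthetases and 14 of 15 import genes. Of 6 mitochondrial translation factors, 5 were lower and 1 higher in the double mutant than in xol-1, 2 were higher and 1 lower than in WT, and 4 were higher in xol-1 than in WT. tufm-1, the elongation factor that brings tRNAs to the ribosome, averaged 249 FPKM in the double mutant, 284 FPKM in xol-1 and 204 FPKM in WT. gfm-1, the elongation factor that drives translocation, was instead highest in the double mutant, at 85.3 ± 5.39 FPKM, against 74.5 ± 6.57 FPKM in xol-1 and 56.7 ± 1.12 FPKM in WT (SD, n = 4 each). mrrf-1, which recycles ribosomes after termination, was lower in the double mutant than in both other genotypes, with log2 differences of -0.53 from xol-1 and -0.62 from WT. Of 10 mitochondrial tRNA synthetases, 6 were lower in the double mutant than in xol-1 and 7 were higher in xol-1 than in WT, with none the other way. Between the double mutant and WT 1 was higher and 1 lower. Over all genes tested, 26.3% were lower and 22.9% higher in the double mutant than in xol-1. The shares were 28.1% lower and 25.2% higher for the double mutant against WT, and 14.7% lower and 16.0% higher for xol-1 against WT. For both lists, the counts of the double mutant against WT are too small to be read as a difference from all genes.

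The import machinery, which carries ribosomal proteins into the organelle, showed 10 of 14 genes lower in the double mutant than in xol-1 and none higher, and 6 higher and none lower in xol-1 than in WT. The outer membrane pore tomm-40 averaged 152 ± 11.2 FPKM in the double mutant, 191 ± 9.8 FPKM in xol-1 and 129.9 ± 9.83 FPKM in WT (SD, n = 4 each). Against WT, 2 import genes rose and 2 fell in the double mutant. Of 6 listed genes that maintain or transcribe mitochondrial DNA, 4 were tested. Of these, 3 were lower in the double mutant than in xol-1 and 2 were higher in xol-1 than in WT, and 2 rose and 1 fell in the double mutant against WT. Over all genes tested, 26.3% were lower and 22.9% higher in the double mutant than in xol-1. The shares were 28.1% and 25.2% for the double mutant against WT, and 14.7% and 16.0% for xol-1 against WT. The import counts of the double mutant against WT, and all counts out of 4, are too small to be read as a difference from all genes. The median log2 differences of the double mutant from xol-1 were -0.20 for translation factors, -0.24 for synthetases, -0.35 for import and -0.25 for mitochondrial DNA upkeep, beside -0.38 for the ribosomal proteins and -0.018 for all genes.

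The 12 protein-coding genes of mitochondrial DNA, whose messages these ribosomes translate, included 8 that were lower in the double mutant than in xol-1 and none that was higher, with a median of -0.35. Over all genes tested, 26.3% were lower and 22.9% higher in that comparison. Against WT, 4 were lower and none higher in the double mutant (28.1% and 25.2% of all genes tested). In xol-1, 2 were higher and none lower than in WT (16.0% and 14.7% of all genes tested). These counts against WT are too small to be read as a difference from all genes. COX3, a core subunit of cytochrome c oxidase, was lower in the double mutant than in xol-1 (log2 difference -0.42; limma, Benjamini-Hochberg adjusted p = 0.00239), as was ND1, a core subunit of complex I (-0.38; adjusted p = 0.000702). ND6 did not pass, at 0.06. The libraries were made from poly(A) RNA, and how fully mitochondrial transcripts are captured that way is unknown.

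Of 35 nuclear genes of the respiratory chain tested, 11 rose and 9 fell in the double mutant against xol-1, near the 22.9% and 26.3% of all genes tested, with a median of -0.03. In the double mutant 17 were higher and 2 lower than in WT (25.2% and 28.1% of all genes tested). In xol-1 16 were higher and none lower than in WT (16.0% and 14.7% of all genes tested). Among those that were higher in the double mutant than in xol-1 were the ATP synthase subunit genes atp-1 by 0.33 and atp-2 by 0.35 (limma, Benjamini-Hochberg adjusted p = 0.00500 and 0.00483). In the same comparison atp-3, atp-4 and atp-5 did not pass, at -0.19, 0.12 and 0.20. Among the 9 that were lower were lpd-5 (-0.47), cox-5B (-0.45) and asg-1 (-0.33). Of the mitochondrial unfolded protein response and protease genes, 3 of 11 rose and 1 fell in the double mutant against xol-1, 5 rose and 3 fell against WT, and 4 were higher and 2 lower in xol-1 than in WT. The shares of all genes tested were 22.9% and 26.3%, 25.2% and 28.1%, and 16.0% and 14.7%, in that order. hsp-6, the mitochondrial Hsp70 chaperone used as a reporter of that response, averaged 299.5 ± 19.7 FPKM in the double mutant, 242 ± 30.8 FPKM in xol-1 and 187 ± 13.6 FPKM in WT (SD, n = 4 each). The protease clpp-1 was lower in the double mutant than in both, with log2 differences of -0.55 from xol-1 and -0.56 from WT. Between the double mutant and xol-1, hsp-60 (log2 difference 0.11) and atfs-1 (0.12) of this list did not pass.

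Ribosomal proteins of the cytosol, which make most cellular proteins including the mitochondrial ribosomal ones, were counted as well. Of 77 tested, 5 rose and 22 fell in the double mutant against xol-1 (22.9% and 26.3% of all genes tested), with a median of -0.05. Against WT, 56 of 77 were higher in the double mutant (25.2% of all genes tested) and 65 of 77 in xol-1 (16.0%). None was lower in either mutant, against 28.1% and 14.7% of all genes tested, and the median was 0.42 in each. Their summed level at L3 was 414524 to 469509 FPKM in the double mutant, 450188 to 491919 FPKM in xol-1 and 345381 to 395745 FPKM in WT. No test of the difference between the gene lists was made.

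**Figure D4:**
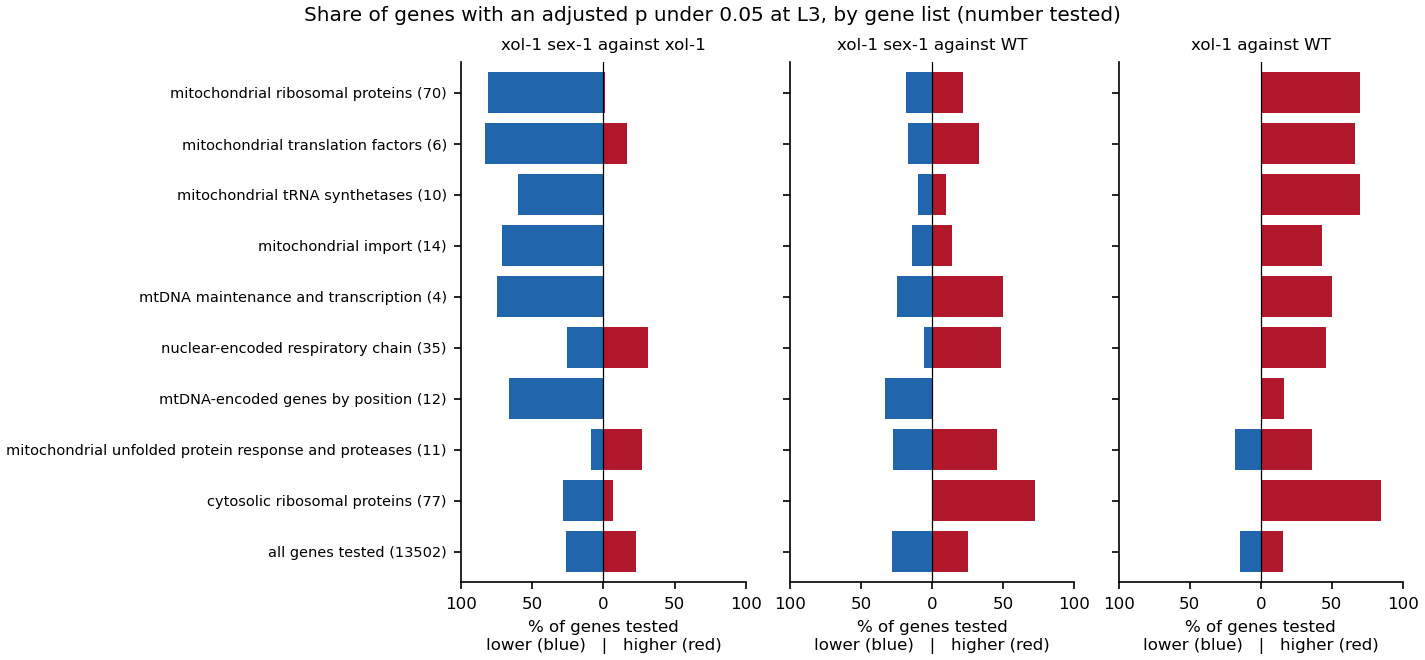
Percent of genes tested that were lower (blue, to the left) or higher (red, to the right) at an adjusted p under 0.05 in each L3 comparison, for the 70 mitochondrial ribosomal protein genes, for 8 lists of related genes and for all 13502 genes tested. In the left panel 57 of 70 mitochondrial ribosomal protein genes are lower, against 22 of 77 cytosolic ribosomal protein genes and 26.3% of all genes.

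Marker genes of tissues and of the molt were counted by the same rule. For the double mutant against xol-1, 22.9% of all genes tested passed as higher and 26.3% as lower. The shares were 25.2% and 28.1% for the double mutant against WT, and 16.0% and 14.7% for xol-1 against WT. The marker lists are short, and no test against these shares was made. Germline markers were higher in the double mutant than in xol-1 for 4 of 8 tested, with none lower, and body wall muscle markers for 4 of 4, their sum being 1183 to 1406 FPKM in the double mutant, 642 to 936 FPKM in xol-1 and 750.2 to 872 FPKM in WT. Intestinal markers were higher for 3 of 4, with sums of 1595 to 2086 FPKM in the double mutant, 1670 to 2000 FPKM in xol-1 and 1390 to 1606 FPKM in WT. Neuronal markers were higher for 1 and lower for 2 of 6. Against WT, the double mutant had 6 of 8 germline, 4 of 4 muscle and 3 of 4 intestinal markers higher and none lower, and 2 neuronal markers higher and 3 lower. xol-1 had 2 germline and 1 intestinal marker higher and 1 neuronal marker lower than WT. These counts for xol-1, and the neuronal counts in all 3 comparisons, are too small to be read as a difference from all genes. Genes of the molting epidermis, whose levels cycle with each larval stage, were lower in xol-1 than in WT for 6 of 8 tested, with none higher and a median of -0.63. They summed to 1868 to 2151 FPKM in the double mutant, 1519 to 1908 FPKM in xol-1 and 2314 to 3228 FPKM in WT. In the double mutant 3 molting genes were higher and none lower than in xol-1, and 1 was higher and 4 lower than in WT. unc-89 of the muscle list and mlt-11 of the molting list were listed at 0 in all libraries, and pgl-1 of the germline list was listed at 0 in the double mutant larvae. The part of tissue makeup and of developmental timing in the differences of the 70 genes was not tested.

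The double mutant was the genotype sampled at 3 stages. Each stage lay in a table of its own, the scaling between tables is unknown and the sample codes differ by stage, so stage and processing batch cannot be told apart and no test was made. In early embryos the 70 genes made up 0.598 to 0.634% of all FPKM, at L1 0.303 to 0.326% and at L3 0.413 to 0.451%. The ranges of the 3 stages did not overlap. As FPKM, 61 of the 70 genes had lower FPKM in every L1 library than in any early embryo library, and 5 (mrpl-37, mrpl-41, mrps-26, mrpl-1 and mrpl-15) had higher FPKM. From L1 to L3, 61 genes had higher FPKM in every later library and 6 had lower. The share of all listed genes that moved in these ways was not computed. With the scaling between tables unknown, these counts are not read as particular to the set. By rank, the median member stood at the 91.0 to 92.0 percentile of all genes in early embryos, at 87.5 to 88.1 at L1 and at 89.4 to 90.7 at L3.

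The make-up of the set also differed between stages, measured as each gene's percent of the summed FPKM of the 70, which does not depend on the scaling of a table. At L1, 24 genes took a larger share than in every early embryo library and 31 a smaller one. mrpl-37 stood out, with 0.55% of the sum in early embryos, 2.85% at L1 and 0.569% at L3. Its level was 47.4, 46.4 and 42.9 FPKM in early embryos, 108, 114, 105 and 111 FPKM at L1, and 36.7 to 41.8 FPKM at L3. It was thus the fifth most abundant member at L1 and ranked 63 and 64 of 70 at the other 2 stages. mrpl-41, a mitochondria-specific large subunit protein, took 1.73% in early embryos, 4.98% at L1 and 2.3% at L3, and was the most abundant member at L1.

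In the other direction, mrps-15 took 0.962% of the sum in early embryos, 0.294% at L1 and 0.503% at L3, the smallest L1 to embryo ratio of the set at 0.306. mrpl-36 was the most abundant member in early embryos, with 338, 323 and 350.3 FPKM, and had 61.1, 71.3, 83.1 and 55.5 FPKM at L1. Its share was 4.06%, 1.77% and 2.5% at the 3 stages. mrps-23, a mitochondria-specific small subunit protein, took 1.86%, 0.799% and 1.89%. mrps-26 took 0.0783% in early embryos, 0.315% at L1 and 0.199% at L3. mrpl-11, by contrast, kept a share of 3%, 3.22% and 2.97%. mrps-5 took 1.06% in early embryos, 2.43% at L1 and 1.74% at L3, at levels of 83 to 90.7, 89.3 to 96.5 and 113 to 125 FPKM.

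**Figure D5:**
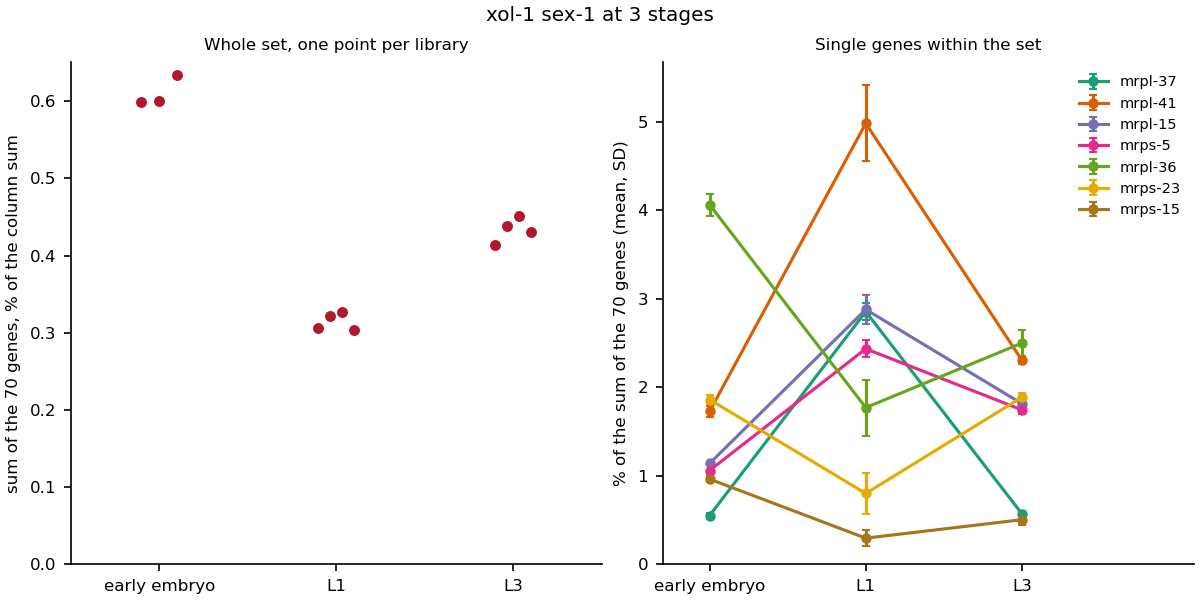
Left, summed FPKM of the 70 genes as a percent of all FPKM in each xol-1 sex-1 library at the 3 stages, each point 1 library. Right, mean and SD (n = 3 early embryo, 4 L1 and 4 L3 libraries) of the percent that 7 single genes take of that sum, with mrpl-37 at 0.55%, 2.85% and 0.569% and mrpl-36 at 4.06%, 1.77% and 2.5%.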

How the data were processed

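The authors deposited FPKM values in 3 tables, 1 per stage, with genes in rows. Per the submitters' processing notes, cutadapt 2.3, FastQC 0.11.8, Salmon 1.9.0 and DESeq2 1.42.0 were used with build WBcel235. Their roles, and how FPKM were computed and scaled between samples, are not given in the sources used here. Per the labels' protocols, RNA was fragmented, copied with random primers and made into directional libraries. Columns were matched to the 19 samples by name, and 13 further columns, in the tables of the earlier stages, match none of them and were not used. Gene names and coordinates are those of WBcel235 in Ensembl release 115.

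FPKM are not counts, so limma 3.58.1 under R 4.3.3 with statmod 1.5.0 was applied to log2(FPKM + 1), the pseudocount being 1, of the 12 L3 libraries in a single fit (eBayes with trend and robust, no covariate, 9 residual degrees of freedom). The 13502 genes whose mean reached 1 FPKM were tested. All 70 members passed this filter, on the mean over all 12 libraries. Tests were two-sided, with Benjamini-Hochberg adjustment over all genes tested and a threshold of 0.05. A fold change on this scale understates the change of low genes. No test crossed tables. Percentiles and shares were computed within each library in Python 3.11.15 (pandas 2.3.3, numpy 2.4.6), with matplotlib 3.10.9 for the figures. Library totals are unknown. The relative depth came from the steps between low values, covers counting error only, and was not used in a test. The procedure was tested on simulated data with known changes.

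The members and lists were chosen with earlier results of these data known. Genes named in full were, for each comparison, the 4 with the largest rise and the 4 with the largest fall among those past the threshold, the 3 most and 3 least abundant at L3, mrps-5 and the genes numbered 18. Genes of other lists, the genes named by their combination of calls and those named for their share at a stage were picked with their values in view. The names listed for genes on mitochondrial DNA matched none in the tables, so those 12 genes were taken by position. Alternatives were a pseudocount of 0.1 or 0.5, a mean of 5 FPKM as filter or none at all, scaling to a common column sum or by the median of ratios, replicate number as a block, only the 2 groups compared, eBayes without trend and robust, and leaving out each of the 12 libraries in turn.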

Additional observations from a re-analysis of the deposited data

Results flagged for a closer look

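Among 88 groups of 4 libraries of the named genes, 3 held a value far from the other 3 by Dixon's criterion, about what chance gives, since it marks about 1 in 20 such groups. mrpl-54 in L1 replicate 1 of the double mutant was at 34.5 FPKM, against 47.7 to 49.6 FPKM in the other 3 libraries. mrps-18B in the same library was at 45.0 FPKM, against 39.3 to 40.1 FPKM. mrpl-17 in WT L3 replicate 2 was at 72.5 FPKM, against 61.5 to 63.2 FPKM in the other WT libraries.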

How the results depend on the processing

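Between the double mutant and xol-1, 57 genes were lower, 48 of them also with columns scaled to a common sum. That scaling moved the median of all genes to 0.0758, -0.0605 and -0.12 for the double mutant against xol-1, the double mutant against WT and xol-1 against WT. Under it 2 genes were higher in the double mutant than in xol-1 and the median was -0.28 (-0.35 relative to all genes), 23 were lower in the double mutant than in WT, and 29 were higher in xol-1 than in WT with a median of 0.16 (0.29 relative to all genes). The differences of xol-1 against WT then changed sign for 4 genes, none of them called: mrpl-54 to -0.0259, mrps-11 to -0.0701, mrpl-36 to -0.0326 and mrps-33 to -0.0198. With scaling by the median of ratios 8 genes were lower in the double mutant than in WT. With only the 2 groups compared in the fit, 2 were higher in the double mutant than in xol-1 and 23 lower than in WT. The cause of these shifts was not tested.

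Leaving out 1 library at a time gave 55 to 60 lower and 1 to 2 higher genes for the double mutant against xol-1, with medians of -0.43 to -0.33. For the double mutant against WT it gave 13 to 15 higher and 7 to 18 lower, with medians of -0.13 to -0.07. The count of lower genes was 7 without WT replicate 1, 8 without WT replicate 2 or 4, and 7 without double mutant replicate 1 or 4. For xol-1 against WT it gave 37 to 61 higher and 0 lower, with medians of 0.24 to 0.35, and mrpl-48 ranged from -0.18, without WT replicate 3, to 0.42, without WT replicate 1. The second gene higher than in xol-1, without WT replicate 1 or 3, was mrpl-48.

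Same-numbered replicates of 12 pairs correlated between -0.18 and 0.24 in their deviations, 2 pairs over 0.1, and 3 correlated best with their own number, so the numbers are not taken to pair libraries. With replicate number as a block, 57 genes were lower and 1 higher in the double mutant than in xol-1, 14 higher and 11 lower than in WT, and 47 higher in xol-1 than in WT, with medians of -0.38, -0.10 and 0.30. Leaving out the 7 genes that overlap a same-strand gene, an alternative chosen after seeing the data, left 52 lower and 1 higher, 13 higher and 12 lower, and 45 higher.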
